A study of Homo sapiens with 24 samples.

Results

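The 42 genes described here encode enzymes that modify drugs, other foreign compounds and bile acids in the liver, together with the receptors that sense these compounds. They were followed in 24 one-colour microarrays of 2 human hepatocellular carcinoma (HCC) cell lines, PLC/PRF/5 and SNU-449. A gene was taken through the accession that its probes carry, and it was kept if at least 1 probe stood well above background in the 3 arrays of some group. Of the 42 genes, 39 had a named probe, with 54 probes between them, and 27 were kept, against 18054 genes that passed the same filter over both lines. POR, SULT1A1 and GSTA1 had no probe that could be named and were not analysed here.

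Each line was grown as 4 groups of 3 independent cultures, namely control, TGFβ1 at 1 ng/mL, galunisertib at 10 µM, and TGFβ1 with galunisertib. All cultures, controls included, were serum-starved overnight, and RNA was taken after 16 h of treatment. PLC/PRF/5 is an epithelial HCC line, SNU-449 is a mesenchymal-like HCC line that secretes more TGFβ, and each line stands for 1 tumour. RNA of a culture is a bulk sample, so fewer cells that express a gene and less of its RNA per cell cannot be told apart, and p-values measure the spread between cultures of 1 line. TGFβ1 is a cytokine that signals through a pair of serine/threonine kinase receptors to SMAD proteins, and galunisertib inhibits the kinase of the type 1 receptor. A level is given as the log2 of a probe's signal over the 75th percentile of its array, so that 1 unit is a doubling, and differences between groups are differences of these log2 levels. Levels are compared within a probe only, since probes differ in how strongly they bind.

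Hepatocytes clear foreign compounds in steps. Phase I enzymes, led by the cytochrome P450 (CYP) family, add or expose a reactive group, and phase II enzymes attach a sugar, sulfate, methyl or glutathione group. Sensors such as the nuclear receptors NR1I2 (PXR) and NR1I3 (CAR), and the aryl hydrocarbon receptor AHR, raise the enzymes when their ligands are present. Bile acids are made from cholesterol by CYP7A1, CYP8B1, CYP27A1 and CYP7B1, coupled to glycine or taurine by BAAT, and hold back their own synthesis through FXR and its target NR0B2 (SHP). Many of these genes mark the mature hepatocyte, and their loss is a usual feature of dedifferentiated liver tumours.

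The arrays gave usable signals of similar range. Between 41.6% and 49.6% of the probes of an array were well above background, and no spot was saturated. Values were set to a floor of -4.13, the median over arrays of the lowest signal well above background, so that a value of -4.13 is an upper bound. All 13 hepatocyte markers examined, albumin among them, were more abundant in PLC/PRF/5 cells, with a median difference of 7.49 from SNU-449, and 7 of the 13 were above background in SNU-449. The TGFβ feedback gene SKIL rose by 1.63 with TGFβ1 in PLC/PRF/5 and fell by 2.06 when galunisertib was added to TGFβ1, and in SNU-449 it fell by 2.62 with galunisertib alone. In SNU-449 the SKIL difference with TGFβ1 was 0.93 and did not pass (limma, adjusted p = 0.083). SMAD7, a further feedback gene, rose there by 0.65 with TGFβ1 (adjusted p = 0.0113), and galunisertib alone gave -1.90 (adjusted p = 0.00015). Adding TGFβ1 to galunisertib raised SKIL by 2.08 (adjusted p = 0.00956) and SMAD7 by 1.38 (adjusted p = 0.00131). Each replicate number was 1 slide and each group held the same position on all 3 slides, so position on the slide and group cannot be told apart.

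Without treatment, the levels of many of these genes differed between PLC/PRF/5 and SNU-449, as did those of most genes tested. PLC/PRF/5 had the higher level of 13 of the 27 genes, among them GSTP1, CYP1A1, CYP27A1, FMO5 and NR0B2, and SNU-449 had the higher level of 8, among them MGST1, CYP1B1, UGT2B7, CYP3A5 and UGT1A6. The 21 genes that passed (limma, adjusted p below 0.05 over all genes) are to be read against 68.5% of all 18054 genes in that comparison. A gene seen in 1 line alone entered the test through that line and so had to differ, which holds for NR0B2, CYP1A1, CYP2C18, CYP4F3, SULT2A1 and GSTP1, kept in PLC/PRF/5 alone, and for MGST1, kept in SNU-449 alone. For these genes only the size of the difference between the lines is given below. Among the other 20, kept in both lines, 7 were higher in PLC/PRF/5 and 7 in SNU-449, with a median difference (PLC/PRF/5 minus SNU-449) of 0.26 beside 0.07 over all genes, so the excess of 13 over 8 lies in the genes kept through 1 line. CYP3A7, counted here as higher in SNU-449, has probes that disagree, as given below.

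**Figure D1:**
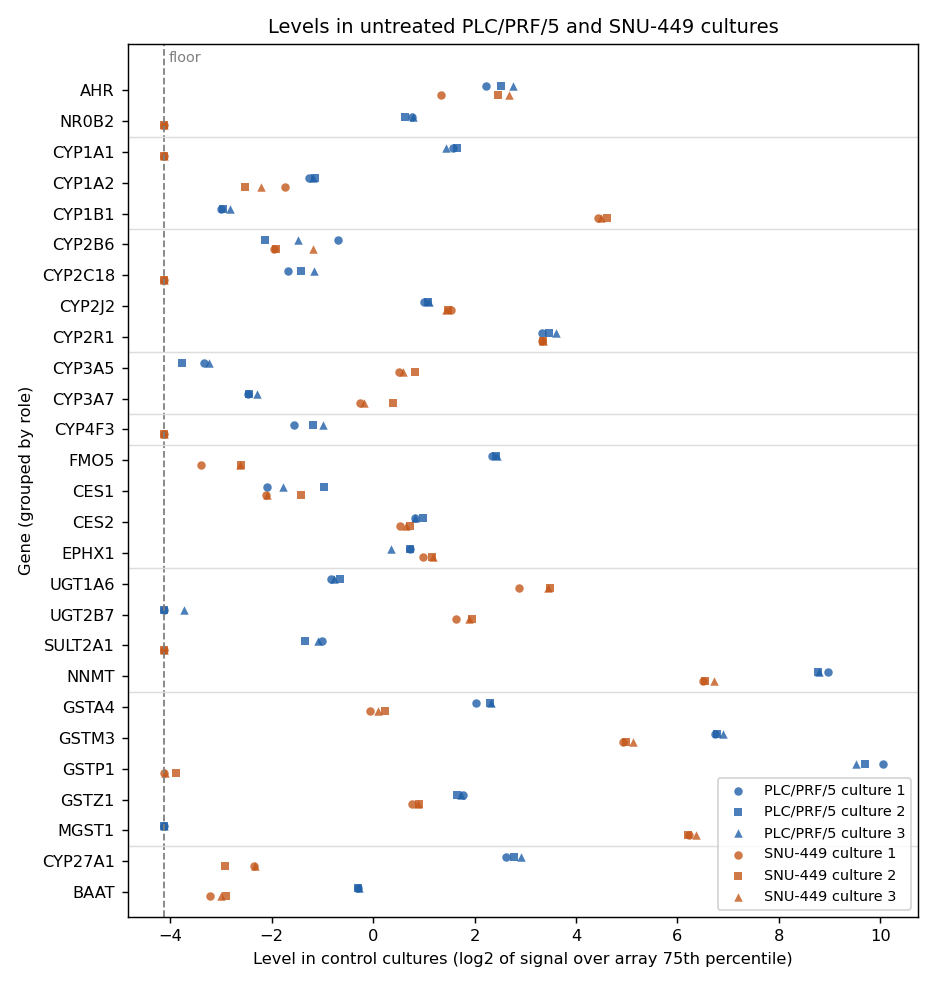
Levels (log2 of the signal over the 75th percentile of the array) of the 27 kept genes in the 3 control cultures of PLC/PRF/5 (blue) and of SNU-449 (orange), 1 marker per culture, with genes grouped by role and the floor as a dashed line. The lines lie far apart for GSTP1, MGST1 and CYP1B1 and overlap for AHR, CYP2B6 and CES1, and the order of different genes along the axis has no meaning because each has its own probe.

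The treatments moved fewer of these genes, and by smaller steps. In PLC/PRF/5, 6 of 26 genes passed with TGFβ1 (1 higher, 5 lower, beside 13.3% of all genes), 6 with galunisertib (2 higher, 4 lower, beside 5.33%), 13 when galunisertib was added to TGFβ1 (9 higher, 4 lower, beside 38.9%) and 3 when TGFβ1 was added to galunisertib (2 higher, 1 lower, beside 8.31%). In SNU-449, 5 of 21 genes passed with TGFβ1 (2 higher, 3 lower, beside 10.4%), 3 with galunisertib (2 higher, 1 lower, beside 7.3%), 8 when galunisertib was added to TGFβ1 (6 higher, 2 lower, beside 17.2%) and 1 when TGFβ1 was added to galunisertib, in the lower direction, beside 1.88%. The median difference over the genes lay between -0.01 and 0.12 in the comparisons of PLC/PRF/5 and between -0.22 and 0.24 in those of SNU-449, while the median over all genes lay between -0.05 and 0.09. Of the 13 hepatocyte markers in PLC/PRF/5, 4 were lower with TGFβ1 and 3 were lower with galunisertib. There 5 were higher when galunisertib was added to TGFβ1, and 1 when TGFβ1 was added to galunisertib. Of 7 in SNU-449, 1 was higher and 1 lower with TGFβ1, and 3 were higher with galunisertib. When galunisertib was added to TGFβ1 there, 2 were higher and 1 lower, and 1 was lower when TGFβ1 was added to galunisertib. The part of these markers in the counts above was not tested. Comparisons within a line share groups, so their counts are not independent of each other.

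**Figure D2:**
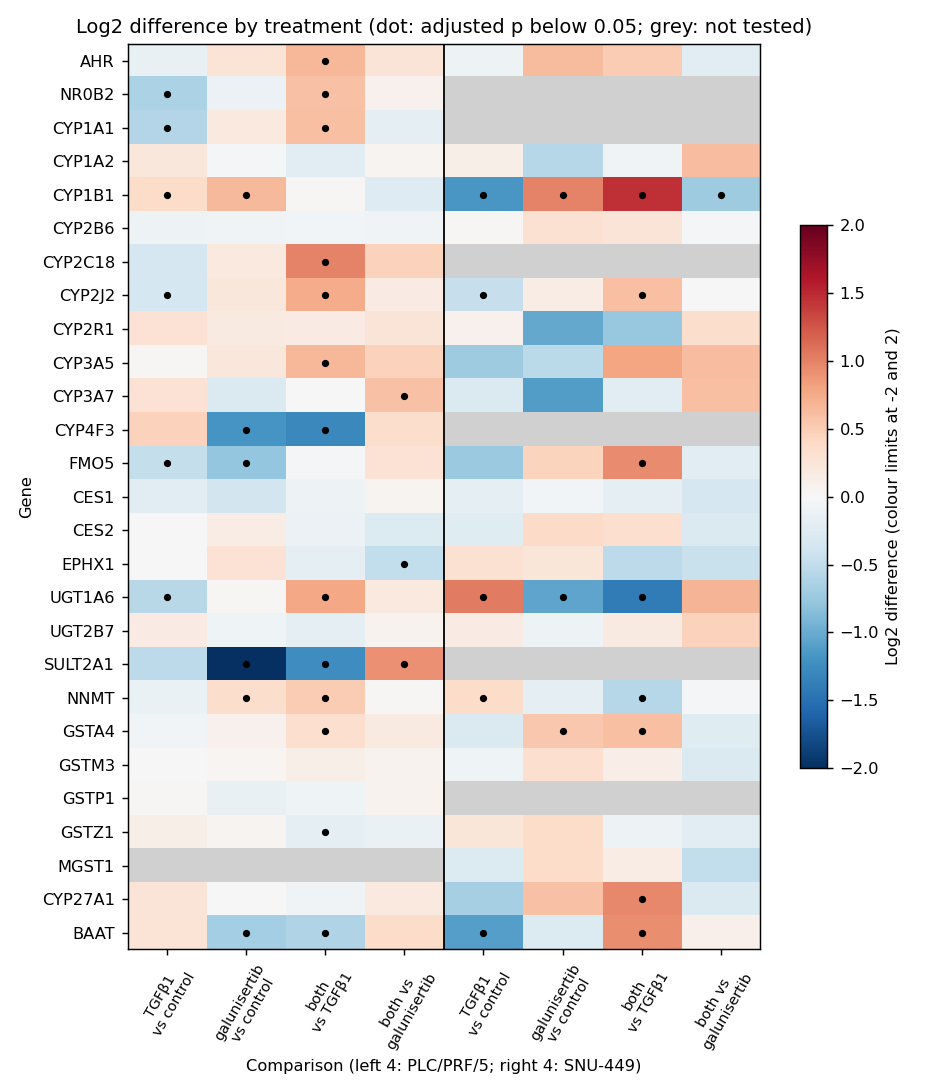
Log2 difference of each kept gene in 4 comparisons of PLC/PRF/5 (left) and the same 4 of SNU-449 (right), with red for higher, blue for lower, grey for genes not tested in that line and a dot where the adjusted p was below 0.05. CYP1B1, UGT1A6 and CYP2J2 have dots in both lines, and the darkest cell is SULT2A1 under galunisertib in PLC/PRF/5, at -2.67, beyond the colour limit.

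How the arrays were scaled changed how many genes passed. When each array was scaled to its median or not scaled at all, none of the 6 differences with TGFβ1 in PLC/PRF/5 passed, and 2 and 1 of the 6 with galunisertib did. With galunisertib added to TGFβ1 in PLC/PRF/5, the split of higher and lower genes was 8 and 2 with the median, 1 and 2 with no scaling, and 7 and 7 with the 75th percentile taken over the probes detected on every array, while the median of all genes moved from 0.06 to 0.23, 0.05 and -0.11. The same 3 settings gave splits of 2 and 2, 3 and 2, and 7 and 2 for galunisertib added to TGFβ1 in SNU-449. Under these settings and quantile normalization, no difference that passed changed sign. Of the 78 calls on these genes over all 11 comparisons, 58 passed whichever single culture was left out, and the 20 others are named below with the cultures they depended on.

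The sensors were few. AHR was present in both lines, NR0B2 in PLC/PRF/5 alone, and NR1I2 and NR1I3, the receptors that induce CYP3A and CYP2B enzymes, were not well above background on all arrays of any group. NR0B2, a corepressor that holds back bile acid synthesis, read 0.76, 0.64 and 0.79 in the 3 control cultures of PLC/PRF/5 and 0.03, 0.10 and 0.18 with TGFβ1. It read 0.40, 0.64 and 0.78 with galunisertib and 0.65, 0.61 and 0.79 with both. All 3 TGFβ1 cultures thus lay below the 9 other cultures. NR0B2 fell by 0.63 (SE 0.10) with TGFβ1 (limma, adjusted p = 0.00297) and rose by 0.58 when galunisertib was added to TGFβ1 (adjusted p = 0.00134). In all 12 SNU-449 cultures it was at the floor, so that control PLC/PRF/5 exceeded control SNU-449 at least 29.0-fold.

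AHR, the ligand-activated factor that drives the CYP1 family, was measured by a pair of probes. The brighter probe read 2.51 ± 0.27 (SD, n = 3) in control PLC/PRF/5 and 2.16 ± 0.72 in control SNU-449, where 1 culture read 1.33 and the other two 2.46 and 2.68. The difference between the lines, 0.35, did not pass with this probe (adjusted p = 0.219). It rose by 0.67 in PLC/PRF/5 when galunisertib was added to TGFβ1 (adjusted p = 0.00362), and the 3 cultures with both lay at 2.98 to 3.09 against 2.27 to 2.46 with TGFβ1 alone. The dimmer probe gave 0.25 for this comparison (adjusted p = 0.032). The dimmer probe gave 0.87 between the lines (adjusted p = 4.2e-08 over 29153 probes). It gave -0.47 with TGFβ1 in SNU-449 (adjusted p = 0.023) and 0.56 when galunisertib was added there (adjusted p = 0.0058), where the brighter probe gave -0.10 and 0.52 with adjusted p of 0.897 and 0.300. The calls on AHR in SNU-449, and the size of its difference in PLC/PRF/5, therefore rest on which probe is read.

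The CYP1 family, which oxidises polycyclic aromatic compounds and estrogens, was split between the lines. CYP1B1 read -2.99, -2.95 and -2.82 in control PLC/PRF/5 and 4.44, 4.62 and 4.49 in control SNU-449, a 173-fold difference (log2 -7.43, SE 0.11, adjusted p = 5.76e-22). In SNU-449 it read 3.27, 3.25 and 3.51 with TGFβ1, 5.58, 5.26 and 5.68 with galunisertib, and 4.76, 4.81 and 4.84 with both. The 4 groups did not overlap and ran in the order TGFβ1, control, both, galunisertib. Relative to control, CYP1B1 fell by 1.17 with TGFβ1 (SE 0.12, adjusted p = 0.000185) and rose 1.99-fold with galunisertib (adjusted p = 0.00128). Adding galunisertib to TGFβ1 raised it by 1.46 (adjusted p = 2.66e-05), and adding TGFβ1 to galunisertib lowered it, by -0.70 (adjusted p = 0.0187), the one difference of that comparison to pass in SNU-449 among the probes that represent the genes. That last call did not pass without culture 1 or 2 with both or culture 1 with galunisertib (adjusted p = 0.052 to 0.060). A further CYP1B1 probe gave -0.93, 1.17, 1.48 and -0.62 for these comparisons.

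CYP1B1 was near the lower end of the scale in PLC/PRF/5, where it read -2.63 to -2.43 with TGFβ1 and -2.31 to -2.26 with galunisertib. Both differences passed, at 0.36 (adjusted p = 0.0261) and 0.64 (adjusted p = 0.00458), and the first was lost without any 1 of the TGFβ1 cultures or control culture 1 or 2 (adjusted p = 0.052 to 0.097). With normexp background correction, which compresses dim signals, these differences were 0.04 and 0.12 and did not pass (adjusted p = 0.85 and 0.55).

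CYP1A1, the classical AHR target, showed the opposite distribution. It read 1.58, 1.65 and 1.43 in control PLC/PRF/5 and 1.03, 0.92 and 0.96 with TGFβ1. It read 1.93, 1.66 and 1.64 with galunisertib and 1.65, 1.49 and 1.56 with both. The TGFβ1 cultures were the lowest, with no overlap with the other 3 groups. CYP1A1 fell by 0.58 with TGFβ1 (SE 0.09, adjusted p = 0.00291) and rose by 0.60 when galunisertib was added (adjusted p = 0.000777). In control SNU-449 its 3 cultures were at the floor, at least 51.4-fold below PLC/PRF/5. CYP1A2, the hepatic member that metabolises caffeine, read -1.20 ± 0.06 in control PLC/PRF/5 and -2.16 ± 0.40 in control SNU-449 and passed no test under the main settings. The difference between the lines, 0.96, passed under some alternatives, for example with the floor doubled (limma, adjusted p = 0.0211). The single kept probe of CYP1A2 lay in row 13 of the array, among the outer rows described further on.

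UGT1A6, a glucuronosyltransferase of planar phenols that AHR also induces, moved in opposite directions in the lines. In SNU-449 it read 2.88, 3.49 and 3.44 in controls and 4.27, 4.33 and 4.33 with TGFβ1. It read 2.30, 2.07 and 2.30 with galunisertib and 3.11, 3.03 and 2.59 with both. TGFβ1 cultures were thus the highest and galunisertib cultures the lowest. UGT1A6 rose by 1.04 with TGFβ1 (SE 0.18, adjusted p = 0.00437), fell by 1.05 with galunisertib (adjusted p = 0.00815) and fell by 1.40 when galunisertib was added to TGFβ1 (adjusted p = 0.000428).

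In control PLC/PRF/5 UGT1A6 was 16.3-fold lower than in control SNU-449 (log2 -4.02, SE 0.16, adjusted p = 1.61e-14). It read -0.84, -0.65 and -0.77 in controls and -1.50, -1.11 and -1.31 with TGFβ1. It fell by 0.55 with TGFβ1 (adjusted p = 0.0206), a call lost without TGFβ1 culture 1 or 3 or control culture 2 (adjusted p = 0.068 to 0.087). With both it read -0.37, -0.61 and -0.63, higher by 0.77 than with TGFβ1 alone (adjusted p = 0.00122). Galunisertib alone gave 0.02 (adjusted p = 0.946). A further UGT1A6 probe gave the same signs in each of the comparisons that passed, with -0.73 for TGFβ1 in PLC/PRF/5 (adjusted p = 0.058 over 26986 probes). It also passed where the main probe did not, at 1.10 when TGFβ1 was added to galunisertib in SNU-449 (adjusted p = 0.0097 over 25676 probes), against 0.69 (adjusted p = 0.108) with the main probe. UGT1A genes share their last exons, so a probe there would read other UGT1A transcripts as well, and where these probes lie was not tested.

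**Figure D3:**
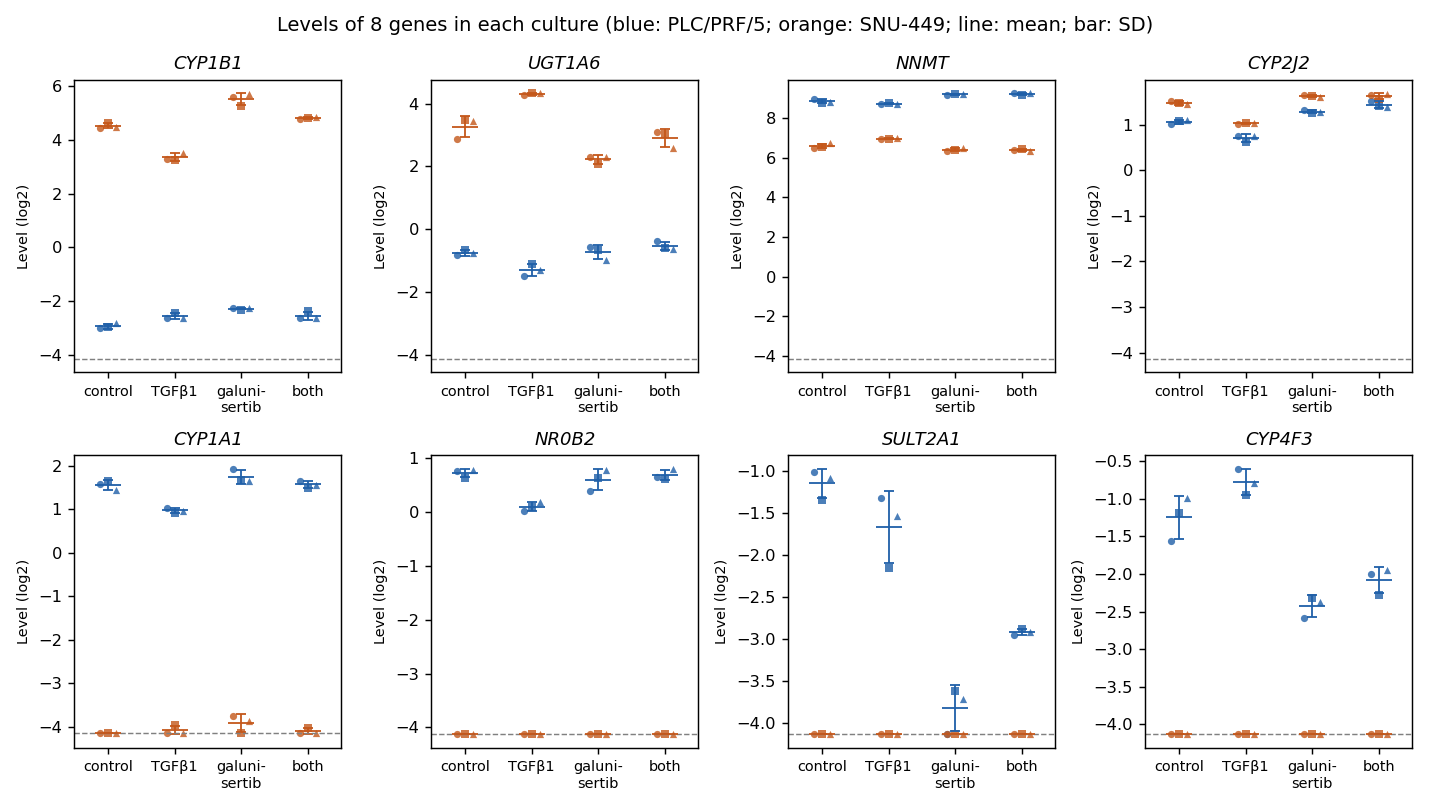
Levels (log2) of CYP1B1, UGT1A6, NNMT, CYP2J2, CYP1A1, NR0B2, SULT2A1 and CYP4F3 in each culture by treatment, with PLC/PRF/5 in blue and SNU-449 in orange, lines for means, bars for the SD of 3 cultures and the floor dashed. UGT1A6 rises with TGFβ1 in SNU-449 and falls in PLC/PRF/5, and SULT2A1 and CYP4F3 are lowest in the PLC/PRF/5 cultures that received galunisertib.

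Promoter windows are shown for CYP1A1 and UGT1A6, which AHR is known to induce. Both fell with TGFβ1 in PLC/PRF/5 and rose when galunisertib was added. CYP1B1, of the family that AHR drives, went the other way with TGFβ1 there, at 0.36, and is not shown. Windows are also shown for SULT2A1 and CYP4F3, which fell with galunisertib in PLC/PRF/5. The windows are RefSeq sequences of GRCh38.p14, from 250 bases before to 50 after the annotated start, written 5′ to 3′ on the gene's strand, and UGT1A6 has a pair of annotated starts. Capitals mark GCGTG, the core of the element that AHR binds, and CAGAC, one arm of the palindromic Smad-binding element, each searched on both strands, so that CACGC and GTCTG are the same motifs on the other strand.
CYP1A1, chr15:74725479-74725778, minus strand: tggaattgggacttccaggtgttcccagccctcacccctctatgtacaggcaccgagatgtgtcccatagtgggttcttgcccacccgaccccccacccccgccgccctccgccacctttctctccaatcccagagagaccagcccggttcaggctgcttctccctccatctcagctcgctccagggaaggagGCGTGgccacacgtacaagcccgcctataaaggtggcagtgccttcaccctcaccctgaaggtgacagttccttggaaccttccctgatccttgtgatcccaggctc
UGT1A6, chr2:233691452-233691751, plus strand: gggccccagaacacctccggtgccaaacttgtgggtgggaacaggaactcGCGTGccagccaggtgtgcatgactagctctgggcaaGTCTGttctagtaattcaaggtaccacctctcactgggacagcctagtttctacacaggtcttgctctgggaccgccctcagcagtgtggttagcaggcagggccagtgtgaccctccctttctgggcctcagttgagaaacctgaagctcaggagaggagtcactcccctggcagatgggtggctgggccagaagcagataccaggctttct
UGT1A6, chr2:233692640-233692939, plus strand: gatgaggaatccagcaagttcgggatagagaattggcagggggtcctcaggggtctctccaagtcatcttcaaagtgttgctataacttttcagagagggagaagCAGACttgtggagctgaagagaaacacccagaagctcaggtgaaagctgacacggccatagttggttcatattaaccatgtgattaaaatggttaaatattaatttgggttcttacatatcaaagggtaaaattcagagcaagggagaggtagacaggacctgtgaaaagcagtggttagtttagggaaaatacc
SULT2A1, chr19:47886266-47886565, minus strand: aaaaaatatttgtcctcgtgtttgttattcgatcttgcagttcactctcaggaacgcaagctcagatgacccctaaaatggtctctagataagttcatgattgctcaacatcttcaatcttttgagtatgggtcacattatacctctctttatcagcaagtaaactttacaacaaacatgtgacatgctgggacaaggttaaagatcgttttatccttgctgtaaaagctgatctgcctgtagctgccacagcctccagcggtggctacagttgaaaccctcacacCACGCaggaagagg
CYP4F3, chr19:15641062-15641361, plus strand: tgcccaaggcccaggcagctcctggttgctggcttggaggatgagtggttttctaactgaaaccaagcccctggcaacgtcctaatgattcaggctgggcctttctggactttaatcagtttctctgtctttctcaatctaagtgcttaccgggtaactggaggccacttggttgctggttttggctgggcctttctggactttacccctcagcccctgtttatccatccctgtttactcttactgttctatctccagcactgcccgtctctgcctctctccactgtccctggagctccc

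GCGTG was found at -57 from the start of CYP1A1, at -200 from the first start of UGT1A6 and, on the other strand, at 37 after the start of SULT2A1, and no motifs overlapped. Over the 42 windows of 31 of the genes, 21.4% held GCGTG, 42.9% held CAGAC and none held the palindrome GTCTAGAC, against 36.5%, 45.3% and 0.202% of all 35116 windows. Such a match describes the letters of the window only.

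Of the CYP2 family, 4 of 6 genes were kept, and CYP2C8 and CYP2E1 were not. CYP2J2, an epoxygenase of arachidonic acid, behaved alike in both lines. In PLC/PRF/5 it read 1.01 to 1.10 in controls, 0.61 to 0.76 with TGFβ1, 1.26 to 1.32 with galunisertib and 1.38 to 1.53 with both. In SNU-449 it read 1.44 to 1.53, 1.00 to 1.04, 1.61 to 1.65 and 1.56 to 1.67 in the same order. The TGFβ1 cultures were the lowest in each line, with no overlap. CYP2J2 fell by 0.36 with TGFβ1 in PLC/PRF/5 (adjusted p = 0.00808) and by 0.46 in SNU-449 (adjusted p = 0.00208), and rose by 0.74 (adjusted p = 3.83e-05) and 0.61 (adjusted p = 0.000218) when galunisertib was added. The TGFβ1 effect differed between the lines by -0.10 (SE 0.09, adjusted p = 0.583).

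CYP2C18, an epidermal and hepatic member of the 2C subfamily, was at the floor in all SNU-449 cultures and at least 6.53-fold higher in control PLC/PRF/5. There it read -1.82 to -1.64 with TGFβ1 and -0.91 to -0.63 with both, a rise of 0.98 (adjusted p = 0.000374). CYP2B6 and CYP2R1, the latter a vitamin D 25-hydroxylase, passed in no comparison under the main settings. Under some alternatives CYP2R1 passed with TGFβ1 in PLC/PRF/5, for example at 0.32 with quantile normalization (limma, adjusted p = 0.0168) and at 0.61 with normexp (adjusted p = 0.0035). CYP2R1 read 3.34, 3.35 and 3.35 in control SNU-449 but 1.43, 2.75 and 2.79 with galunisertib, and the difference of -1.02 (SE 0.44) did not pass (adjusted p = 0.179). Its probe lay in row 3 of the array.

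The CYP3A enzymes, which handle the widest range of drugs, gave the least certain values. CYP3A4 was not well above background. CYP3A5 read -3.77 to -3.24 in control PLC/PRF/5 and 0.51 to 0.82 in control SNU-449 (log2 -4.08, SE 0.58, adjusted p = 3.78e-06), and a dimmer probe away from the array edge gave -1.22 (adjusted p = 2.2e-06 over probes). CYP3A5 rose by 0.66 when galunisertib was added to TGFβ1 in PLC/PRF/5 (adjusted p = 0.0224), a call lost without TGFβ1 culture 1 or 3 or culture 3 with both (adjusted p = 0.055 to 0.075). That call was also lost with the floor doubled, at 0.38 (limma, adjusted p = 0.0741), and with normexp, at 0.25 (adjusted p = 0.188). For CYP3A7, the fetal form, the probes disagreed on the lines. The brighter one, in row 15, gave -2.38 for PLC/PRF/5 minus SNU-449 and the dimmer one 0.91 (adjusted p = 0.00015 and 0.00084 over probes), so no direction between the lines is given for CYP3A7. It rose by 0.58 when TGFβ1 was added to galunisertib in PLC/PRF/5 (adjusted p = 0.0457), which was lost without any 1 of the cultures with both or galunisertib culture 1 or 2 (adjusted p = 0.076 to 0.115). CYP3A genes are close in sequence, and probes may read more than 1 of them.

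CYP4F3, a leukotriene B4 and fatty acid hydroxylase, was the sole CYP4F gene kept, and CYP4F2, CYP4F11 and CYP4F12 were not. It averaged -1.25 ± 0.29 (SD, n = 3) in control PLC/PRF/5 and read -0.60, -0.95 and -0.79 with TGFβ1. It read -2.59, -2.32 and -2.37 with galunisertib and -2.28 to -1.95 with both. Every culture with galunisertib lay below every culture without it. CYP4F3 fell by 1.18 with galunisertib (SE 0.15, adjusted p = 0.0033) and by 1.30 when galunisertib was added to TGFβ1 (adjusted p = 0.000136), while TGFβ1 alone gave 0.47 (adjusted p = 0.0724). With normexp the differences were -0.67 and -0.76. All SNU-449 cultures were at the floor, at least 7.35-fold below control PLC/PRF/5.

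Among the other phase I enzymes, FMO5, a flavin monooxygenase that acts on ketones, was 38.6-fold higher in PLC/PRF/5 (log2 5.27, SE 0.22, adjusted p = 2.78e-14). There it read 2.35, 2.42 and 2.44 in controls, 2.14, 1.76 and 1.86 with TGFβ1, 1.59, 1.54 and 1.73 with galunisertib, and 2.11, 1.72 and 1.89 with both. Every treated culture was below the controls. FMO5 fell by 0.78 with galunisertib (adjusted p = 0.00636) and by 0.48 with TGFβ1 (adjusted p = 0.0249), the latter lost without TGFβ1 culture 2 or 3 or control culture 2 or 3 (adjusted p = 0.063 to 0.092). In SNU-449 it was dim, between -3.81 and -2.08, and rose by 0.95 when galunisertib was added to TGFβ1 (adjusted p = 0.0371), but not with the slide as a block (adjusted p = 0.064), nor without any 1 of the TGFβ1 cultures or culture 1 or 2 with both (adjusted p = 0.051 to 0.128). A dimmer FMO5 probe, not kept in SNU-449, gave 3.54 between the untreated lines. In PLC/PRF/5 it gave -0.74 with galunisertib and -0.35 with TGFβ1, and neither passed (limma, adjusted p = 0.069 and 0.313 over 26986 probes). Its galunisertib effect differed between the lines by 1.48 (adjusted p = 0.0046 over 29153 probes). EPHX1, the microsomal epoxide hydrolase, was slightly higher in SNU-449 (log2 -0.51, adjusted p = 0.00732, and 0.051 without PLC/PRF/5 control culture 3) and fell by 0.49 when TGFβ1 was added to galunisertib in PLC/PRF/5 (adjusted p = 0.023). The second call was lost without culture 1 or 3 with both or galunisertib culture 1 (adjusted p = 0.052 to 0.075). The carboxylesterases CES1 and CES2 passed in no comparison under the main settings with the probes that represent them. The CES2 probe passed under some alternatives, for example at 0.38 with galunisertib in SNU-449 and the floor doubled (limma, adjusted p = 0.0359). A dimmer CES2 probe gave 0.33 between the untreated lines (adjusted p = 0.0024 over probes) and 0.41 when galunisertib was added to TGFβ1 in SNU-449 (adjusted p = 0.020). CES1 read highest on slide 2 in all 8 groups, for example -2.09, -0.97 and -1.77 in control PLC/PRF/5.

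Among the other conjugation enzymes, SULT2A1, the sulfotransferase of steroids and bile acids, responded to galunisertib in PLC/PRF/5. It read -1.01, -1.34 and -1.08 in the controls and -4.13, -3.62 and -3.72 with galunisertib. It read -1.33, -2.15 and -1.53 with TGFβ1 and -2.95, -2.88 and -2.91 with both. Cultures without galunisertib lay above all cultures with it, and 1 of the galunisertib cultures was at the floor. SULT2A1 fell by 2.67 with galunisertib (SE 0.20, adjusted p = 0.00018) and by 1.24 when galunisertib was added to TGFβ1 (adjusted p = 0.000812). Both calls held under every alternative run, but their size depended on the floor and the background correction. With normexp they were -1.08 and -0.56, and the first was -1.99 with the floor doubled. Adding TGFβ1 to galunisertib raised it by 0.91 (adjusted p = 0.0259). That call was lost when the floor was doubled, with a difference of 0.22 (adjusted p = 0.448), and without any 1 of the cultures with both or galunisertib culture 1 (adjusted p = 0.055 to 0.083). SNU-449 was at the floor throughout, at least 7.90-fold below control PLC/PRF/5.

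NNMT, which methylates nicotinamide and some xenobiotics, was among the genes with high signals in both lines. In PLC/PRF/5 it read 8.98, 8.78 and 8.79 in controls, 8.70, 8.74 and 8.71 with TGFβ1, 9.17, 9.22 and 9.22 with galunisertib, and 9.24, 9.17 and 9.25 with both. In SNU-449 it read 6.51, 6.55 and 6.72, then 6.92, 6.96 and 6.98, then 6.36, 6.39 and 6.49, and 6.41, 6.43 and 6.33 in the same order. The cultures with galunisertib were thus the highest in PLC/PRF/5 and the TGFβ1 cultures the highest in SNU-449. Adding galunisertib to TGFβ1 raised NNMT by 0.51 in PLC/PRF/5 (SE 0.07, adjusted p = 0.000386) and lowered it in SNU-449, with a difference of -0.56 (SE 0.08, adjusted p = 0.000995). NNMT rose by 0.36 with TGFβ1 in SNU-449 (adjusted p = 0.018) and by 0.35 with galunisertib in PLC/PRF/5 (adjusted p = 0.0212). The first was lost without TGFβ1 culture 2 or 3 or control culture 1 or 2 (adjusted p = 0.059 to 0.071), and the second without control culture 2 or 3 or galunisertib culture 1 or 3 (adjusted p = 0.053 to 0.087). UGT2B7, which glucuronidates morphine and bile acids, read 1.63 to 1.94 in control SNU-449 and at or near the floor in PLC/PRF/5 (log2 -5.82, adjusted p = 3.44e-16) and passed in no treatment comparison, and UGT2B15 was not well above background.

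The glutathione transferases gave the sharpest contrasts between the lines and few responses. GSTP1, the pi class enzyme that is abundant outside the mature hepatocyte, read 10.05, 9.71 and 9.52 in control PLC/PRF/5. It was not well above background in any SNU-449 culture, a difference of at least 13567-fold. MGST1, the microsomal enzyme, showed the reverse, at 6.23, 6.21 and 6.37 in control SNU-449 and at the floor in all 12 PLC/PRF/5 cultures, at least 1216-fold. GSTP1 and MGST1 were each kept through 1 line alone and so had to differ between the lines. Neither passed in any treatment comparison under the main settings. GSTM3, GSTA4 and GSTZ1 were higher in PLC/PRF/5 by 1.79, 2.13 and 0.87, and GSTA4, which detoxifies lipid peroxidation products, rose by 0.33 in PLC/PRF/5 (adjusted p = 0.012) and by 0.59 in SNU-449 (adjusted p = 0.0153, and 0.055 to 0.057 without TGFβ1 culture 2 or 3) when galunisertib was added to TGFβ1. GSTA4 also rose by 0.54 with galunisertib alone in SNU-449 (adjusted p = 0.0444), not with the slide as a block (adjusted p = 0.072), nor without any 1 of the controls or galunisertib culture 1 or 3 (adjusted p = 0.063 to 0.139). A dimmer GSTA4 probe gave 1.90 between the untreated lines. For galunisertib added to TGFβ1 it gave 0.34 in PLC/PRF/5 and 0.54 in SNU-449 (limma, adjusted p = 0.013 and 0.047 over probes). Its galunisertib effect differed between the lines by 0.67 (adjusted p = 0.038 over probes), against 0.45 with the main probe (adjusted p = 0.146). With TGFβ1 in SNU-449 it gave -0.58 (adjusted p = 0.052), against -0.29 with the main probe. GSTZ1, an enzyme of tyrosine breakdown, fell by 0.20 when galunisertib was added to TGFβ1 in PLC/PRF/5 (adjusted p = 0.042), and this too was lost with the block (adjusted p = 0.063) and without any 1 of the TGFβ1 cultures or culture 1 or 2 with both (adjusted p = 0.054 to 0.133).

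Of the 5 bile acid genes, CYP27A1 and BAAT were kept, and CYP7A1, the rate-limiting enzyme of synthesis, CYP7B1 and CYP8B1 were not well above background. CYP27A1, the mitochondrial sterol 27-hydroxylase, read 2.63, 2.77 and 2.92 in control PLC/PRF/5 and -2.36, -2.93 and -2.33 in control SNU-449, 39.6-fold apart (log2 5.31, adjusted p = 6.05e-16). In SNU-449 it read -3.02, -3.12 and -3.45 with TGFβ1 and -1.99, -2.14 and -2.58 with both, a rise of 0.96 (SE 0.22, adjusted p = 0.0137), lost without TGFβ1 culture 3 or culture 1 with both (adjusted p = 0.060 and 0.052). With TGFβ1 alone the difference of -0.66 did not pass (adjusted p = 0.0903).

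BAAT, which conjugates bile acids to amino acids, read -0.30, -0.30 and -0.28 in control PLC/PRF/5 and -0.91, -1.03 and -0.98 with galunisertib. BAAT fell by 0.68 with galunisertib (SE 0.12, adjusted p = 0.0136, and 0.052 without control culture 2). With TGFβ1 it read 0.18, -0.11 and -0.12 and with both -0.54, -0.40 and -0.90, and the addition of galunisertib to TGFβ1 lowered it, by -0.60 (adjusted p = 0.00368). No culture with galunisertib reached the level of a culture without it. In control SNU-449 BAAT was dim, at -3.21 to -2.89, and with TGFβ1 all 3 cultures were at the floor, at least 2.14-fold lower against that floor (adjusted p = 0.013), a call lost with the floor doubled (-0.12, adjusted p = 0.365). With galunisertib added it was at least 1.90-fold higher again (adjusted p = 0.0205), a call lost without any 1 of the TGFβ1 cultures or culture 1 or 3 with both (adjusted p = 0.056 to 0.073) and with the floor doubled (0.06, adjusted p = 0.679).

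The 2 lines were then compared in their response itself, as the difference of the treatment effects (SNU-449 minus PLC/PRF/5). For TGFβ1, 7 of 27 genes passed, beside 8.6% of all genes, and for galunisertib 5 did, beside 5.82%. UGT1A6 differed under TGFβ1 by 1.59 (SE 0.23, adjusted p = 0.0001) and under galunisertib by -1.07 (SE 0.23, adjusted p = 0.00732). CYP1B1 differed under TGFβ1 by -1.53 (SE 0.15, adjusted p = 1e-06) and NNMT by 0.50 (adjusted p = 0.00248), with -0.53 under galunisertib (adjusted p = 0.00264). BAAT and CYP27A1 differed under TGFβ1 by -1.37 and -0.92 (adjusted p = 0.00242 and 0.0227), though BAAT, at the floor with TGFβ1 in SNU-449, gave -0.40 with the floor doubled (adjusted p = 0.099), and FMO5 under galunisertib by 1.23 (adjusted p = 0.0223). The call on CYP27A1 was lost without PLC/PRF/5 culture 1 of TGFβ1 or control, SNU-449 TGFβ1 culture 3 or SNU-449 control culture 1 or 3 (adjusted p = 0.059 to 0.072), and that on FMO5 without galunisertib culture 2 of PLC/PRF/5 or culture 1 of SNU-449, or SNU-449 control culture 1 (adjusted p = 0.050 to 0.057). For CYP1B1 under galunisertib, up in both lines, the difference of 0.35 did not pass with the brighter probe (adjusted p = 0.199), while the further probe, which was at or near background in PLC/PRF/5, gave 1.16.

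The remaining differences between the lines rest on 1 line alone. SULT2A1, CYP4F3, CYP1A1 and NR0B2 were at or near the floor in SNU-449, so their differences of 2.67 and 1.18 under galunisertib and 0.64 and 0.63 under TGFβ1 restate the change in PLC/PRF/5 and do not show that the lines respond differently. Whether SNU-449 cells respond in these genes below the floor was not tested.

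**Figure D4:**
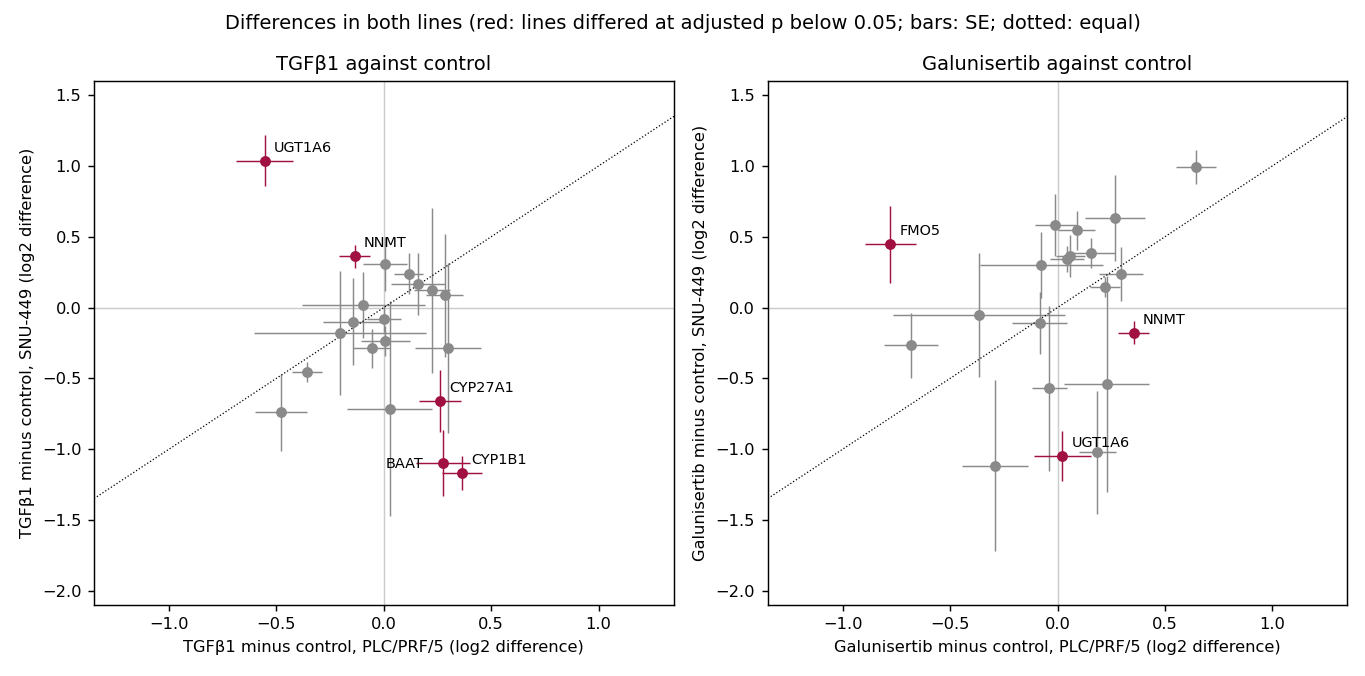
Log2 difference from control in PLC/PRF/5 (horizontal) and in SNU-449 (vertical) with TGFβ1 (left) and galunisertib (right) for the 20 genes kept in both lines, with SE bars, in red where the effects of the lines differed at an adjusted p below 0.05. UGT1A6 and CYP1B1 lie in opposite quadrants under TGFβ1, at -0.55 and 1.04 and at 0.36 and -1.17.

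Wider spread in the outer rows of the array touched 5 kept genes, CYP2R1, CYP3A5, CYP1A2, CYP3A7 and UGT2B7, whose main probes lay in rows 3, 8, 13, 15 and 16. On the 6 SNU-449 arrays with galunisertib, the SD over probes of an array around its replicates reached 1.17 in the outer 20 rows at either end, against at most 0.52 in the inner rows, and on the 18 other arrays it reached 0.70 against 0.38. The part of this spread in the values of those genes was not tested. None of the 5 passed in a treatment comparison of SNU-449. The main probes of AHR, CYP1B1, CES2 and EPHX1 lay within 10 columns of a side edge, where the SD was 0.57 to 0.73 on the SNU-449 arrays with galunisertib and 0.19 to 0.56 on the others, against 0.32 to 0.50 and 0.17 to 0.35 in the inner columns. The further probe of CYP1B1, given above, lay in neither zone.

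**Figure D5:**
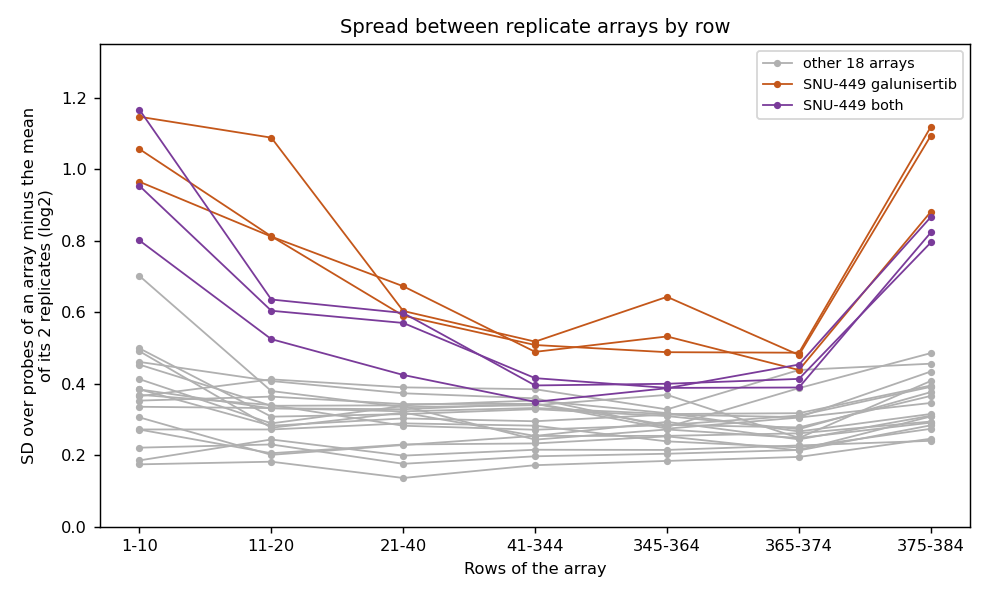
SD over probes of the log2 difference between an array and the mean of its 2 replicates, by rows of the array, with 1 line per array. The 3 SNU-449 galunisertib arrays (orange) and the 3 with both (purple) rise to between 0.80 and 1.17 in rows 1 to 10, while the other 18 arrays (grey) stay at or below 0.70.

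The same pathways held 121 further genes, of which 77 were tested between the lines and 60 passed (32 higher in PLC/PRF/5, 28 higher in SNU-449, beside 68.5% of all genes). These further genes were read under the main settings only, so how far their calls depend on the processing or on single cultures was not tested. The largest differences were GSTT2, a theta class transferase, at least 75.2-fold higher in SNU-449, ACOX2, the peroxisomal oxidase that shortens the bile acid side chain, at 6.13 in favour of PLC/PRF/5, and CBR3, a carbonyl reductase, at least 53.8-fold higher in SNU-449. GSTT2 and CBR3 were not well above background in control PLC/PRF/5. Of the 77, 69 were kept in PLC/PRF/5 and 65 in SNU-449, and genes kept through 1 line alone had to differ. In PLC/PRF/5, 12 of 69 passed with TGFβ1 (6 higher, 6 lower, beside 13.3%), led by ACOX2, which fell by 1.85, SLC51B, a subunit of the bile acid exporter OSTα/β, which fell by 1.44, and KLB, the coreceptor of the bile acid regulator FGF19, which rose by 0.81. When galunisertib was added, 39 passed (22 higher, 17 lower, beside 38.9%), and ACOX2 and SLC51B rose by 2.47 and 2.22 while SULT1C2 fell by 0.94. With galunisertib alone 7 passed (1 higher, 6 lower, beside 5.33%), among them ADH6, AKR1C1 and UGT2B10, which fell by 1.49, 1.02 and 0.73. When TGFβ1 was added to galunisertib 6 passed (4 higher, 2 lower, beside 8.31%), led by ADH4 at 0.77, ACOX2 at 0.57 and UGT2B10 at 0.37.

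In SNU-449, 13 of 65 further genes passed with TGFβ1 (6 higher, 7 lower, beside 10.4%). AOX1, the aldehyde oxidase, fell by 1.53 and the vitamin D receptor VDR, which also senses bile acids, rose by 1.29, and GSTM5 was at least 1.92-fold higher. When galunisertib was added 15 passed (9 higher, 6 lower, beside 17.2%), with AOX1 at 1.79, VDR at -1.58 and NR5A2, an activator of bile acid synthesis genes, at -1.03. With galunisertib alone 8 passed (6 higher, 2 lower, beside 7.3%), with NR3C1, the glucocorticoid receptor, at -2.17 (SE 0.58, adjusted p = 0.0496), AKR1B10 at 1.17 and CYB5A, an electron donor of P450 enzymes, at 0.82. When TGFβ1 was added to galunisertib 5 passed (1 higher, 4 lower, beside 1.88%), led by GSTM5, at least 2.22-fold higher, AKR1B10 at -1.21 and ALDH3A2 at -0.64. The TGFβ1 effect differed between the lines for 11 of 77 genes (beside 8.6%), led by AOX1 at -1.53, SLC51B at 1.44 and VDR at 1.22. The galunisertib effect differed for 8 (beside 5.82%), led by AKR1C1 at 1.52, ADH6 at 1.49 and AKR1B10 at 1.17. To the digits given, AOX1 and AKR1B10 restate their change in SNU-449, and SLC51B and ADH6 their change in PLC/PRF/5. These values rest on 1 line and do not by themselves show that the lines respond differently.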

How the data were processed

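Gene expression was profiled in 24 cultures (2 lines, 4 treatments, 3 cultures each) on one-colour Agilent arrays labelled with Cy3. The deposited scanner files held intensity values per spot, background-corrected by the authors with Agilent Feature Extraction 10.7.3.1 per the labels, and a further deposited table held log2 values normalized by the authors. That table followed the scanner values (slope 1.00 and r = 0.999 for differences between arrays over 19258 probes) and was centred on each probe's median, and it served as an alternative only. No column lacked a sample.

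Processed signals were divided by the 75th percentile of their array, set to a floor of 5.70% of it and log2-transformed, with control and outlier spots left out. Of 58201 probes, 31104 were named by accession and 10719 by lncRNA name, with symbols from the RefSeq table of GRCh38.p14, and 16378 stayed unnamed. A gene was represented by its brightest probe above background. Groups came from the sample titles. Differences were tested with limma 3.58.1 in R 4.3.3, over all 24 arrays between the lines and over the 12 arrays of a line for its treatments, with Benjamini-Hochberg adjustment over all genes and a threshold of 0.05. All 42 genes are accounted for, and of the further pathway genes the 3 largest passing changes per comparison are named. The members, the pathway and marker lists and the motifs were chosen with earlier results of these data known.

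"At least" folds set the brighter group against, per array, the higher of the dim probe's own signal and the lowest signal well above background, except that BAAT in SNU-449 was set against the common floor, the smaller bound. Precision is limited by how few arrays each group had. The scripts were tested on simulated data. Replicate numbers coincided with slides, and same-numbered arrays deviated together (every correlation above 0.1) for TGFβ1 against control in PLC/PRF/5 (0.17 to 0.30) and in SNU-449 (0.13 to 0.22). Alternatives covered scaling, background, floor, filter, choice of probe, the authors' table, the groups fitted, the call rule, the slide as a block and each culture left out. They also covered a plain t-test, without the random variance model that the paper's methods name. Normexp used median signals, since mean signals were not in the columns used. Leaving out the outer 20 rows, and the spread by column, were added after seeing the data.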

Additional observations from a re-analysis of the deposited data

Results flagged for a closer look

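The difference of the treatment effects between the lines (SNU-449 minus PLC/PRF/5, limma, adjusted p below 0.05 over all 18054 genes) passed for the following genes. Under galunisertib these were FMO5 at 1.23, NNMT at -0.53 and UGT1A6 at -1.07. Under TGFβ1 they were UGT1A6 at 1.59, NNMT at 0.50, CYP27A1 at -0.92, BAAT at -1.37 and CYP1B1 at -1.53. The value for BAAT was -0.40 with the floor doubled and no longer passed (adjusted p = 0.099). UGT1A6 and NNMT passed under both treatments, with opposite signs. SULT2A1 at 2.67 and CYP4F3 at 1.18 under galunisertib, and CYP1A1 at 0.64 and NR0B2 at 0.63 under TGFβ1, also passed, but these genes were at or near the floor in SNU-449, so the values restate the change in PLC/PRF/5 and do not show a different response.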

How the results depend on the processing

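Counts of passing genes moved as follows, with the value as reported in brackets. With a fold above 2 and an unadjusted p below 0.001, TGFβ1 gave 0 [6] in PLC/PRF/5 and 3 [5] in SNU-449, galunisertib 2 [6] and 1 [3], galunisertib added to TGFβ1 2 [13] and 2 [8], TGFβ1 added to galunisertib 0 [3] and 0 [1], and the TGFβ1 difference between lines 3 [7]. With no scaling, TGFβ1 gave 0 in PLC/PRF/5, galunisertib 1 there, galunisertib added to TGFβ1 3 and 5, TGFβ1 added to galunisertib 1 and 0, and the differences between lines 3 for TGFβ1 and 1 [5] for galunisertib. With scaling to the array median, TGFβ1 gave 0 and 3, galunisertib 2 in PLC/PRF/5, galunisertib added to TGFβ1 4 in SNU-449, TGFβ1 added to galunisertib 1 and 0, and the differences between lines 3 and 2. A plain t-test was also run, without the random variance model of the paper, which shares the spread between genes. After Benjamini-Hochberg adjustment it gave 3 and 3 for TGFβ1, 0 for galunisertib in SNU-449, and 0 and 0 for TGFβ1 added to galunisertib. Fitting the compared groups alone gave 0 and 0 for the last, 1 for galunisertib in SNU-449 and 3 for its difference between lines, a count the authors' table also gave (3). Requiring signal on every array gave 12 [21] between untreated lines, 5 for galunisertib in SNU-449, and 4 and 3 for the differences between lines. No filter gave 1 for TGFβ1 added to galunisertib in PLC/PRF/5, the mean of probes 2 for the same in SNU-449, and a doubled floor 5 for galunisertib in SNU-449. The cause was not tested. Without the outer 20 rows, CYP3A7 turned from -2.38 to 0.91, read from its other probe.

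Leaving out each culture gave 20 to 22 between untreated lines, 3 to 7 and 4 to 5 for TGFβ1, 4 to 6 and 2 to 5 for galunisertib, 11 to 13 and 4 to 7 for galunisertib added to TGFβ1, 0 to 3 and 0 to 2 for TGFβ1 added to galunisertib, and 6 to 8 and 4 to 7 for the differences between lines (TGFβ1, galunisertib). The count for TGFβ1 in PLC/PRF/5 was 3 without TGFβ1 culture 3 or control culture 2, and that for galunisertib in SNU-449 was 5 without galunisertib culture 2. For galunisertib added to TGFβ1 in SNU-449 it was 5 or 4 without TGFβ1 culture 2 or 3. With the replicate block (the slide), 75 of the 78 calls were kept, with 21 between untreated lines, 6 and 5 for TGFβ1, 6 and 2 for galunisertib and 12 and 7 for galunisertib added to TGFβ1, and all 66 calls between 2 groups had 1 sign on all 3 slides. Of the 78 calls, 25 passed under every alternative run, 17 of them between untreated lines. Other differences passed under alternatives only, among them CYP2R1 with TGFβ1 in PLC/PRF/5, CYP1A2 between untreated lines, and CES2 and GSTM3 with galunisertib in SNU-449. Signals near background limit SULT2A1, CYP4F3, CYP1B1 and CYP3A5 in PLC/PRF/5, and BAAT, FMO5 and CYP27A1 in SNU-449. The galunisertib difference of BAAT in PLC/PRF/5 was -0.41 with normexp and did not pass (limma, adjusted p = 0.076).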
